A study of Mus musculus with 9 samples.

Results

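The 8 genes described here encode receptors and adhesion molecules by which blood-forming progenitors stay in the bone marrow or leave it and seed the thymus: Cxcr4, Ccr9, Ccr7, Selplg, Itga4, Itgb7, S1pr1 and Cd44. They were chosen by name, as genes of marrow retention and thymus seeding, out of 18193 genes with a probe set of their own on the array, and they are represented by 19 probe sets. For 7 genes and 11 probe sets the intensity exceeded the median of its array on 3 or more of the 9 arrays, and these were tested. Ccr7 was not tested, since it passed the array median on only 2 arrays.

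The arrays measured lineage-negative, CD117+, SCA-1+, CD135+ bone marrow cells of mice, a population of multipotent progenitors with access to the lymphoid lineages. The genotypes were wild type (WT), E2A-/- and Lyl1-/-, with 3 arrays each and no treatment named. E2A is the product of the gene Tcf3, and both E2A and Lyl1 are transcription factors of the basic helix-loop-helix family. The series title concerns Tal1, a relative of Lyl1, and no Tal1 mutant is part of the present comparison. Strain, age, sex and the alleles behind the knockouts are not given in the sources used here. According to the labels, the samples of a genotype are independent biological replicates, but WT 1 and WT 3 nearly coincided. At bright probe sets their log2 difference had a robust spread of 0.0823, whereas the other pairs of the 36 had 0.193 to 0.375, and 0 probe sets were more than 2-fold apart in WT 1 and WT 3. Their mean was therefore counted as 1 sample, so that WT had n = 2 samples and each knockout n = 3.

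Progenitors are held in the marrow by CXCL12, which acts on CXCR4, and by the integrin VLA-4, an alpha 4 and beta 1 pair that binds VCAM-1. Cells that leave for the thymus roll on P-selectin through PSGL-1 (the product of Selplg), respond to the chemokines CCL25 and CCL19 or CCL21 through CCR9 and CCR7, and then arrest through integrins. S1PR1 senses sphingosine 1-phosphate, which is high in blood and guides exit from tissues, and CD44 binds hyaluronan. E proteins such as E2A pair with Lyl1 or Tal1 and bind the E-box, CANNTG.

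Promoter sequences were taken from a RefSeq table of mouse build GRCm38.p6, which held 5 of the 8 members: Cxcr4, Ccr9, Itga4, Itgb7 and Cd44. The 250 bases before the listed start site are shown for Itgb7, Cxcr4 and Ccr9 because these had the largest differences from WT, which was seen before they were chosen. Capitals mark each CANNTG, a word that reads the same on both strands, and every other base is in lower case. Itgb7 lies on the minus strand, with this window at chr15:102231936-102232185, and the listed start site falls inside the span annotated for the gene. The Cxcr4 window is chr1:128592300-128592549 on the minus strand, and the Ccr9 window is chr9:123766961-123767210 on the plus strand.
Itgb7: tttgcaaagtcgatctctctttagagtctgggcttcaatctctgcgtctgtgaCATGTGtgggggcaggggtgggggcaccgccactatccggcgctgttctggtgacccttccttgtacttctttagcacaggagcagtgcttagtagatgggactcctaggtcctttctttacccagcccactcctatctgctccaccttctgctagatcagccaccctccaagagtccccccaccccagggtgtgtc
Cxcr4: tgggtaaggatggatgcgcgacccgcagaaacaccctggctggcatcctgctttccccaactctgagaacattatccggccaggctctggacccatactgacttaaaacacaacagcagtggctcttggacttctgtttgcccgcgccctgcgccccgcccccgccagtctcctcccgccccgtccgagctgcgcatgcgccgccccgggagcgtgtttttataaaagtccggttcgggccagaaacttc
Ccr9: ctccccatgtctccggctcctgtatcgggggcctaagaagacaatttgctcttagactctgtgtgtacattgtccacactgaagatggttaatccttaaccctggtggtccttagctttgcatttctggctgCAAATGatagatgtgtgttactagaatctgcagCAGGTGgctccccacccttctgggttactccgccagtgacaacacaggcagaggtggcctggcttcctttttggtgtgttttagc

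The Itgb7 window held 1 E-box, CATGTG, with its first base at -197 from the start site. Ccr9 held 2, CAAATG at -118 and CAGGTG at -85. Itga4 held 1, CAGCTG at -125, and Cxcr4 and Cd44 held 0. Over 32851 promoters of the same length in the table, 66.2% held CANNTG, with a median of 1 match, against 3 of the 5 members. CAGCTG was in 13.0% of them, and CAGGTG or its reverse complement CACCTG in 17.2%, both being cases of CANNTG. These are descriptions of letters in a window and not of binding sites.

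The targeted gene bore out the Lyl1 label: its intensity was 1352 to 1443 on the WT arrays and 79.2 to 92.0 on the Lyl1-/- arrays, the latter close to the array medians of 77.9 to 79.3. The log2 difference was -4.01 (SE 0.165, adjusted p 5.52e-05, limma). Tcf3 differed from WT by -0.19 in E2A-/- (adjusted p 0.888, limma), and the exons deleted are not given in the sources used here, so its probe set does not check the E2A-/- label. The sort markers Kit (314 to 508) and Flt3 (672 to 1302) were well above the median on all 9 arrays, and Cd3e, Cd4, Cd8a and Itgam stayed between 59.1 and 120. Arrays E2A-/- 2 and E2A-/- 3 stood apart in some transcripts of mature granulocytes and monocytes. Of 15 markers of these cells, 12 had a probe set of their own (10 of them bright enough to be tested), and their intensities summed to 17864 and 20474 there. The sum was 2012 in E2A-/- 1, 2007 to 2518 in WT and 2301 to 3906 in Lyl1-/-. The high sums were carried by S100a8, S100a9, Ngp, Camp, Chil3, Lcn2 and Ltf. Lyz2, at 633 and 1054 on E2A-/- 2 and 3 against 540 to 913 elsewhere, did not follow. Nor did Itgam, at 59.1 to 67.5 on all arrays. Mmp8 was dim but highest on E2A-/- 2, at 112 against 66.5 to 73.9 elsewhere. Mmp9 was at 121 and 89.6 on E2A-/- 2 and 3 against 68.7 to 79.6 elsewhere. Cxcr2 was at 98.2 on E2A-/- 2 against 80.6 to 90.1 elsewhere. Arrays E2A-/- 1 and E2A-/- 3 were high in some of the erythroid markers. Car1 read 741, 199 and 638 on E2A-/- 1, 2 and 3 against 109 to 196 elsewhere, and Klf1 257, 147 and 275 against 94.0 to 154, while Hba-a1 stayed between 60.7 and 69.9. Slc4a1 was instead high on E2A-/- 2 and 3, at 300 and 736 against 85.7 to 182 on the other arrays. The collagen genes Col1a1 and Col1a2 were at 130 and 415 on WT 2, against 65.0 to 72.0 and 69.6 to 102 elsewhere. The actin 3-prime over 5-prime ratio, a sign of RNA degradation, was 10.6 on WT 2 and 10.1 on E2A-/- 2 against 2.85 to 4.23 elsewhere. Xist, expressed in female cells, was at 2001 to 2362 on E2A-/- 2, Lyl1-/- 1 and Lyl1-/- 2 and at 79.7 to 104 on the others. In sorted bulk RNA, fewer cells of a type and less RNA per cell cannot be told apart.

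No receptor passed the threshold, an adjusted p under 0.05 over all 11951 genes tested with limma, in any of the 3 genotype comparisons. Itgb7, Cxcr4 and Selplg were brighter on average in both knockouts than in WT, with the largest positive difference at Itgb7 in E2A-/- and at Cxcr4 in Lyl1-/-. Ccr9 was dimmer on all E2A-/- arrays than on the WT arrays. Itga4, S1pr1 and Cd44 lay within 0.28 of WT on the log2 scale in either knockout. The comparisons of each knockout with WT share the same WT samples and are given side by side.

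**Figure D1:**
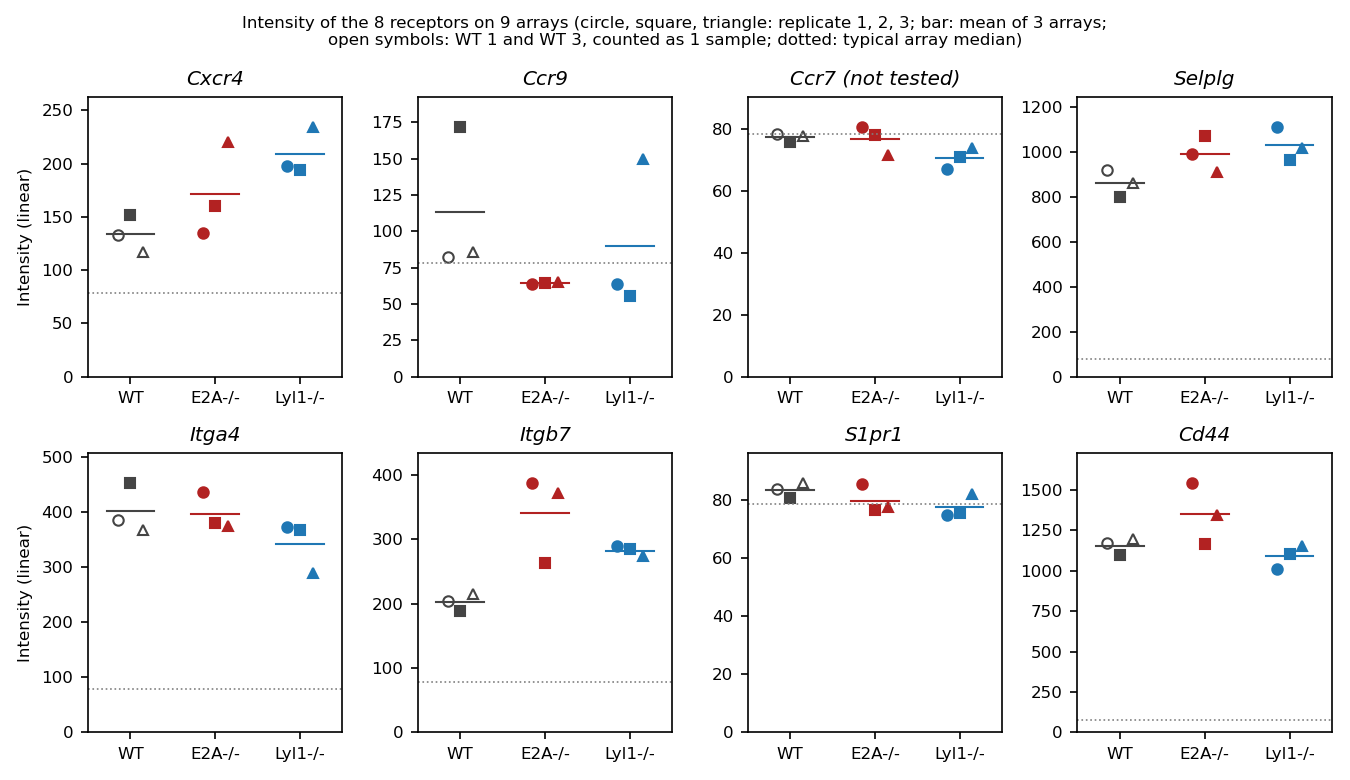
Deposited linear intensity of the probe set that represents each of the 8 receptors, on the 9 arrays by genotype, with a bar at the mean of the 3 arrays and a dotted line at the typical array median. Itgb7 shows WT at 189 to 216 below both knockouts at 264 to 387, and Ccr9 and Ccr7 lie near the array median apart from WT 2 and Lyl1-/- 3 for Ccr9.

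Among the chemokine receptors, Cxcr4, the receptor for the marrow retention signal CXCL12, had intensities of 133, 152 and 117 on WT 1, 2 and 3. They were 135, 160 and 220 on the E2A-/- arrays and 198, 194 and 234 on the Lyl1-/- arrays. All Lyl1-/- arrays lay above all WT arrays, whereas the E2A-/- arrays overlapped both groups. The log2 difference of Lyl1-/- from WT was 0.59 (SE 0.202, 95% confidence interval 0.13 to 1.06), a fold of 1.51, with an unadjusted p of 0.0180 and an adjusted p of 0.432 (limma). In E2A-/- it was 0.29 (SE 0.202, adjusted p 0.802, limma), and between the knockouts (E2A-/- minus Lyl1-/-) it was -0.31 (SE 0.181, adjusted p 0.700, limma). The levels ran in the order WT, E2A-/-, Lyl1-/-, with neither pair of neighbours apart beyond the spread. Within E2A-/-, Cxcr4 was highest on the 2 arrays with granulocyte transcripts, and without these arrays the E2A-/- difference was -0.035. Leaving out 1 array moved it from 0.09 (without E2A-/- 3) to 0.45 (without E2A-/- 1), and the difference between the knockouts from -0.50 to -0.15. The Lyl1-/- difference ran from 0.45 to 0.73 over all 24 alternatives. The geometric mean of the hybridisation spike controls was 1161, 1241 and 1129 on WT 1, 2 and 3. It was 1045, 1522 and 2831 on the E2A-/- arrays and 2053, 1635 and 2294 on the Lyl1-/- arrays. These controls were thus higher on every Lyl1-/- array than on every WT array. Within each genotype they ran in the same order of arrays as Cxcr4. Their part in the Cxcr4 values was not tested.

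Ccr9, the receptor for the thymic chemokine CCL25, had 5 probe sets, of which only 1427419_x_at was bright enough to be tested. The suffix _x_at marks probes that may also bind other transcripts. Its intensity was 82.7, 172 and 85.9 on WT 1, 2 and 3, and 63.5, 64.2 and 65.1 on the E2A-/- arrays. On the Lyl1-/- arrays it was 64.0, 55.8 and 150.
WT 2 and Lyl1-/- 3 were high, the E2A-/- arrays all lay below the array median and below WT, and the Lyl1-/- arrays spanned both. The probe set passed the median on 4 arrays, all of WT and Lyl1-/- 3, and so entered the test only through WT. That filter tilts its differences from WT towards lower values. The log2 difference from WT was -0.90 in E2A-/- (SE 0.421, 95% confidence interval -1.87 to 0.06, adjusted p 0.629, limma) and -0.57 in Lyl1-/- (SE 0.421, adjusted p 0.796, limma). E2A-/- lay below Lyl1-/- by a log2 difference of -0.34 (SE 0.377, adjusted p 0.887, limma). The order of the mean levels was WT, Lyl1-/-, E2A-/-, with wide intervals at each step. These values rested on single arrays. Without WT 2, which had a high actin ratio, the differences from WT were -0.39 and -0.05. Without Lyl1-/- 3 the Lyl1-/- difference was -1.01 and that between the knockouts 0.10, and without Lyl1-/- 2 they were -0.30 and -0.61. Of the other 4 probe sets, 3 stayed between 57.7 and 72.6 on every array, under the median, and 1421920_a_at passed it only on Lyl1-/- 3, at 85.5. Lyl1-/- 3 was thus the highest array for that probe set too, while WT 2 lay under the median there.

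The arrays with high Ccr9 also had the highest sums of B and plasma cell markers. Of 12 such markers, 11 had a probe set of their own (6 bright enough to be tested), and the intensities summed to 3819 on WT 2 and 3266 on Lyl1-/- 3. The sums were 2832 and 2890 on the other WT arrays, 2094 to 2990 in E2A-/- and 2278 and 2337 on the other Lyl1-/- arrays. They were carried by Ighm, the heavy chain gene of IgM, at 2750 on WT 2 and 2127 on Lyl1-/- 3 against 952 to 1872 elsewhere. Igll1, a surrogate light chain gene, was also highest on these arrays, at 103 and 138 against 82.7 to 100.5. Vpreb1, its partner, was at 121 on WT 2 against 91.8 and 94.1 on the other WT arrays, at most 82.8 in E2A-/- and 129 to 141 in Lyl1-/-.
Cd79b ran from 155 to 319 and was highest on Lyl1-/- 1, and Sdc1, of plasma cells, was at 400 to 412 in E2A-/- and 93.1 to 247 elsewhere. Ms4a1, Cd79a, Pax5 and Ebf1 stayed between 57.4 and 82.0. Vpreb3 was highest on Lyl1-/- 3, at 101 against 80.3 to 90.6 elsewhere. Jchain was at 92.3 and 98.7 on WT 1 and 3, and at 56.0 to 65.0 on WT 2 and all knockout arrays. Siglech, a marker of plasmacytoid dendritic cells, which carry Ccr9, read 75.9 to 84.2 on every array. The list of 9 dendritic cell markers holds Ccr9 itself and the sort marker Flt3. Its other 7 genes (5 bright enough to be tested) summed to 791 on WT 2 and 1243 on Lyl1-/- 3, against 979 to 1281 on the other arrays. The part of such cells in the Ccr9 values was not tested.

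Ccr7, the receptor for CCL19 and CCL21, was read at the level of the array median throughout. Its 1 probe set was at 78.5, 75.8 and 77.8 on the WT arrays, 80.6, 78.2 and 71.6 on the E2A-/- arrays and 67.3, 71.0 and 73.9 on the Lyl1-/- arrays. The Lyl1-/- arrays were the lowest as a group, without overlap with WT, but the values lie where most probe sets of the array lie, and Ccr7 entered no test.

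Selplg encodes PSGL-1, the ligand of P-selectin through which progenitors roll on vessel walls. Its intensity was 919, 800 and 859 on WT 1, 2 and 3, and 990, 1070 and 909 on the E2A-/- arrays. On the Lyl1-/- arrays it was 1108, 963 and 1014. Every Lyl1-/- array was above every WT array, and E2A-/- 3 lay between WT 1 and WT 3. The log2 difference from WT was 0.23 in E2A-/- (SE 0.112, adjusted p 0.655, limma) and 0.28 in Lyl1-/- (SE 0.112, 95% confidence interval 0.03 to 0.54, unadjusted p 0.0340, adjusted p 0.519, limma). The knockouts differed by -0.06 (E2A-/- minus Lyl1-/-, 95% confidence interval -0.29 to 0.17, adjusted p 0.951, limma), and their arrays overlapped.

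Of the integrins, Itgb7 encodes beta 7, which pairs with alpha 4 to bind MAdCAM-1 or with alpha E to bind E-cadherin. It had the largest positive difference among the members in E2A-/- progenitors. Its intensity was 203, 189 and 216 on WT 1, 2 and 3, 387, 264 and 372 on the E2A-/- arrays, and 289, 284 and 274 on the Lyl1-/- arrays.
Every knockout array lay above every WT array, the Lyl1-/- arrays within a narrow range, and E2A-/- 2 below the other E2A-/- arrays and below all of Lyl1-/-. The log2 difference of E2A-/- from WT was 0.76 (SE 0.163, 95% confidence interval 0.38 to 1.13), a fold of 1.69, with an unadjusted p of 0.00147 and an adjusted p of 0.179 (limma). For Lyl1-/- it was 0.50 (SE 0.163, interval 0.13 to 0.88), a fold of 1.42, with an unadjusted p of 0.0140 and an adjusted p of 0.399 (limma). E2A-/- exceeded Lyl1-/- by 0.25 (SE 0.146, interval -0.08 to 0.59, adjusted p 0.696, limma), so the order WT, Lyl1-/-, E2A-/- was not resolved at its upper step. With 1 array left out that step ran from 0.15 (without E2A-/- 1) to 0.43 (without E2A-/- 2). The call depended on E2A-/- 2. Without that array, which had a high actin ratio, granulocyte transcripts and Xist, the E2A-/- difference was 0.93 with an adjusted p of 0.0315 (limma), past the threshold. With all 9 arrays as separate samples it was 0.73 with an adjusted p of 0.0506 (limma), just short of it.

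Within E2A-/-, Itgb7 was highest on E2A-/- 1, with the low granulocyte sum, and nearly as high on E2A-/- 3, with the highest. Without E2A-/- 2 and 3 the difference from WT was 0.96, from 1 E2A-/- array. The erythroid genes Car1 and Klf1 were, like Itgb7, higher on E2A-/- 1 and 3 than on E2A-/- 2. So were Car2, Ermap, Alas2 and, under the array median, Hba-a1. Slc4a1 (140, 300 and 736) and Epor (96.6, 101 and 113) were instead lowest on E2A-/- 1. Car2, the brightest of them, was at 1054, 780 and 996 in E2A-/- against 1511, 823 and 1545 on WT 1, 2 and 3. Of 10 erythroid markers, 8 had a probe set of their own (7 bright enough to be tested), and they summed to 2632, 1807 and 3299 on the E2A-/- arrays, 1651 to 2324 in WT and 1289 to 1748 in Lyl1-/-. Of 12 markers of T and NK cells, 9 had a probe set of their own (4 bright enough to be tested). Their intensities summed to 1293 to 1547 in WT, 1663 to 2142 in E2A-/- and 1422 to 1561 in Lyl1-/-. The sums were carried by Nkg7, at 1513, 1032 and 1175 on E2A-/- 1, 2 and 3 against 659 to 954 on the WT and Lyl1-/- arrays. Within E2A-/-, Nkg7 ran in the same order of arrays as Itgb7. Cd3d, Cd3e and Cd3g read 56.3 to 120. The part of such cells in the Itgb7 values was not tested.

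Itga4 encodes alpha 4, the partner of beta 7 and of beta 1 in VLA-4, and was read by 5 probe sets. The brightest, 1436037_at, was at 386, 453 and 368 on WT 1, 2 and 3, 438, 380 and 376 on the E2A-/- arrays and 373, 367 and 289 on the Lyl1-/- arrays. The Lyl1-/- arrays were the lowest as a group, with Lyl1-/- 3 furthest down, and WT and E2A-/- overlapped. Log2 differences from WT were -0.06 in E2A-/- (SE 0.147, adjusted p 0.972, limma) and -0.28 in Lyl1-/- (SE 0.147, 95% confidence interval -0.61 to 0.06, adjusted p 0.666, limma). The Lyl1-/- difference was -0.15 without WT 2 and -0.16 without Lyl1-/- 3.

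The probe sets of Itga4 did not move together between genotypes. At 1456498_at the intensity was 160, 188 and 152 on the WT arrays, 239, 190 and 191 on the E2A-/- arrays and 155, 177 and 163 on the Lyl1-/- arrays. Here every E2A-/- array lay above every other array, and E2A-/- exceeded Lyl1-/- by 0.32 on the log2 scale (SE 0.123, unadjusted p 0.0312, adjusted p 0.574, limma), against 0.22 (adjusted p 0.756, limma) at the brightest probe set. Without E2A-/- 1 the difference at 1456498_at was 0.21, and without Lyl1-/- 3 that at the brightest was 0.10. The E2A-/- difference from WT was 0.27 at this probe set (adjusted p 0.714, limma), 0.07 at 1421194_at and -0.06 at the brightest, each from the fit over 20387 probe sets. The remaining 2 probe sets ran from 56.3 to 83.0 and were not tested.

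The other partner chains of these integrins, chosen for mention after their values were seen, were dim and differed little from WT. Itgb1, the beta 1 chain of VLA-4, differed by 0.11 in E2A-/- and 0.01 in Lyl1-/- (adjusted p 0.896 and 0.992, limma). Itgae, the alpha E partner of beta 7, differed by 0.06 and 0.11 (adjusted p 0.956 and 0.899, limma). By genotype the mean log2 intensity was 6.59 to 6.70 for Itgb1 and 6.19 to 6.29 for Itgae. These lie near the array median, where differences are compressed. The larger difference on the beta 7 side, read at a brighter level, was not tested against its partners.

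S1pr1, the receptor that guides exit towards blood, was dim. Its intensity was 83.5, 80.5 and 85.7 on the WT arrays, 85.4, 76.3 and 77.4 on the E2A-/- arrays and 74.9, 75.2 and 81.9 on the Lyl1-/- arrays. All values lay within a few units of the array median and the groups overlapped. The median was passed on 5 arrays, all of WT, E2A-/- 1 and Lyl1-/- 3, so S1pr1 too entered the test only through WT. Log2 differences from WT were -0.05 in E2A-/- (SE 0.0976, adjusted p 0.959, limma) and -0.09 in Lyl1-/- (SE 0.0976, adjusted p 0.892, limma), with intervals of -0.28 to 0.17 and -0.32 to 0.13.

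Cd44, the hyaluronan receptor, was among the bright members and was read by 4 probe sets. At the brightest, 1423760_at, intensities were 1169, 1096 and 1198 on WT 1, 2 and 3, 1541, 1166 and 1343 on the E2A-/- arrays and 1011, 1101 and 1153 on the Lyl1-/- arrays. E2A-/- 1 and E2A-/- 3 lay above all other arrays, and all E2A-/- arrays lay above all Lyl1-/- arrays. E2A-/- exceeded Lyl1-/- by 0.30 on the log2 scale (SE 0.117, 95% confidence interval 0.04 to 0.57), a fold of 1.23, with an unadjusted p of 0.0308 and an adjusted p of 0.509 (limma). Against WT the differences were 0.24 in E2A-/- (SE 0.131, adjusted p 0.710, limma) and -0.07 in Lyl1-/- (SE 0.131, adjusted p 0.962, limma). Without E2A-/- 1 the E2A-/- difference from WT was 0.14. In the order Lyl1-/-, WT, E2A-/-, neither knockout stood apart from WT. The arrays E2A-/- 1 and 3 are also those with high Car1 and Klf1, though Slc4a1 was at 140 and 736 there against 115 to 182 on WT. The part of erythroid cells in the Cd44 values was not tested.

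The weaker Cd44 probe sets gave another picture for E2A-/- 2 and 3. At 1434376_at the intensity was 504, 623 and 519 on the WT arrays, 708, 474 and 485 on the E2A-/- arrays and 389, 520 and 411 on the Lyl1-/- arrays. Only E2A-/- 1 was above WT there, and the E2A-/- difference from WT was -0.05 on the log2 scale (adjusted p 0.990, limma). At 1452483_a_at it was 0.13 (adjusted p 0.935, limma), with E2A-/- 1 again the highest array at 132 and the other arrays at 89.1 to 114. The 4th probe set, 1443265_at, ran from 53.4 to 60.1, under the array median throughout.

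**Figure D2:**
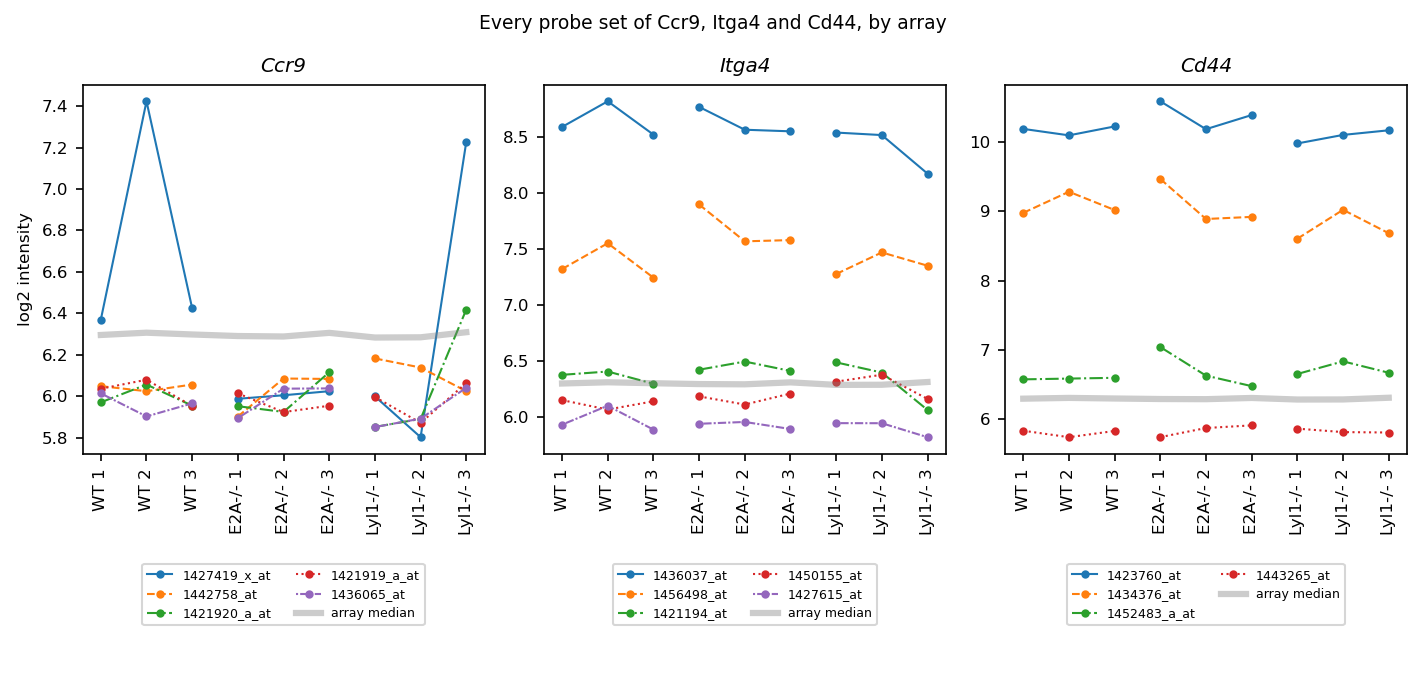
Log2 intensity of every probe set of Ccr9, Itga4 and Cd44 (vertical axis) on each of the 9 arrays (horizontal axis), with the array median as a thick grey line. One Ccr9 probe set rises above the median on WT 2 (intensity 172) and Lyl1-/- 3 (150), and E2A-/- 1 has the highest value at the 3 brighter Cd44 probe sets.

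Counted over the members, 0 of 7 genes passed the threshold in each comparison, where 0.226% of all tested genes passed for E2A-/- minus WT, 0.192% for Lyl1-/- minus WT and 0.117% for E2A-/- minus Lyl1-/-. At an unadjusted p under 0.05 there was 1 member for E2A-/- (Itgb7), against 8.59% of all genes. For Lyl1-/- there were 3 (Itgb7, Cxcr4 and Selplg), against 8.79%, and between the knockouts 1 (Cd44), against 8.65%. The samples did not overlap between E2A-/- and WT for 3 members, where this held for 22.5% of all genes: 2 were higher (Itgb7 and Selplg, against 9.69% of all genes) and 1 lower (Ccr9, against 12.8%). They did not overlap between Lyl1-/- and WT for 4 members, against 26.7%: 3 were higher (Itgb7, Cxcr4 and Selplg, against 12.2%) and 1 lower (Itga4, against 14.5%). Between the knockouts they did not overlap for 2 (Cd44 and Itga4, both higher in E2A-/-), against 12.2% in either direction and 5.73% for higher. At 0 of the 7 members did all E2A-/- arrays lie on one side of the WT mean and all Lyl1-/- arrays on the other, which held for 2.36% of all genes. Here WT 1 and WT 3 count through their mean. As single arrays, Selplg overlapped between WT and E2A-/-, and Itga4 between WT and Lyl1-/-. Ccr9 and S1pr1 passed the brightness filter only through the WT arrays, so their lower values in the knockouts are tilted by it.

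The median log2 difference of the 7 members was 0.23 in E2A-/- against -0.01 for all tested genes, -0.07 in Lyl1-/- against -0.00478, and 0.04 between the knockouts against -0.00841. Probe set by probe set, 0 of 11 passed in any comparison, where 0.221%, 0.216% and 0.0736% of all tested probe sets passed in the order above. At an unadjusted p under 0.05 there were 1, 3 and 2 of the 11, against 8.07%, 8.36% and 7.72% of all. Those without overlap numbered 5, 5 and 3, against 22%, 25.6% and 11.5%.

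**Figure D3:**
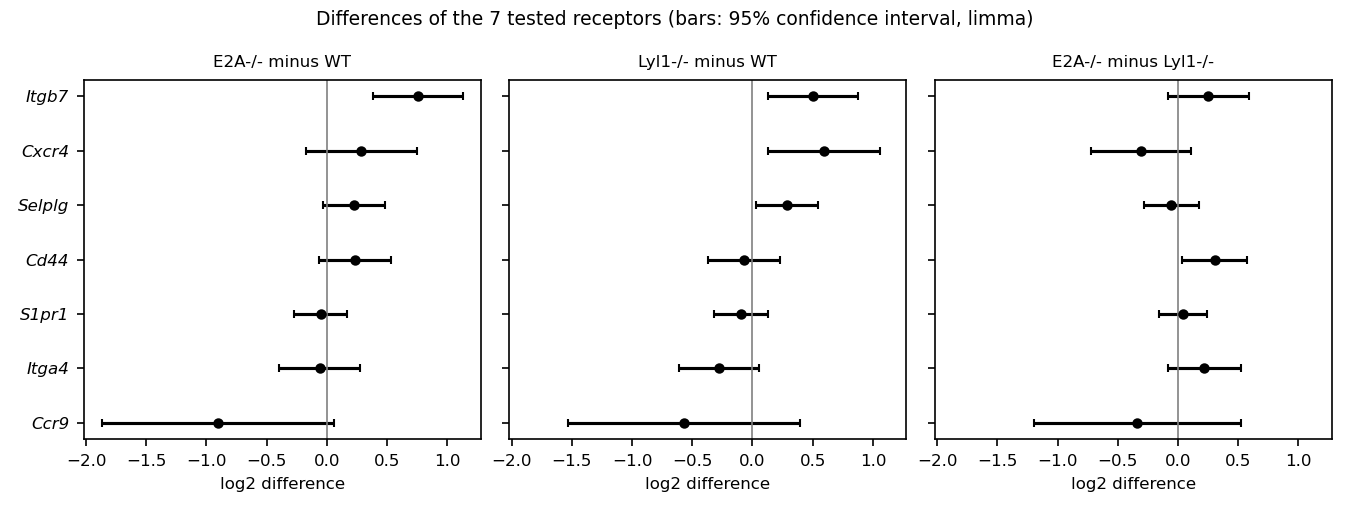
Log2 difference of the 7 tested receptors (points) with its 95% confidence interval (bars) in the 3 comparisons. The interval of Itgb7 lies above 0 against WT in both knockouts (0.38 to 1.13 and 0.13 to 0.88), and that of Ccr9 is the widest in each panel.

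The rest of the pathway was described through 10 lists of 166 genes, of which 156 had a probe set of their own and 120 were tested. None of the 120 passed the threshold in any comparison with limma. At an unadjusted p under 0.05, 8 were higher and 7 lower in E2A-/- than in WT, where this held for 3.22% and 5.36% of all tested genes. In Lyl1-/- they were 5 and 9 (3.78% and 5% of all genes), and in E2A-/- relative to Lyl1-/- 11 and 7 (3.85% and 4.8% of all genes). The medians over the 120 were -0.00131, -0.01 and 0.00161 on the log2 scale. Named below are up to 2 genes a list with the smallest p, where the unadjusted p was under 0.05.

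Of 20 other chemokine receptors, 10 were tested and 0 reached an unadjusted p under 0.05 in any comparison. Their median difference from WT was 0.02 in both E2A-/- and Lyl1-/-. All 10 were dim, with genotype means of 6.12 to 6.86 on the log2 scale, around the array median, where differences are compressed. Among 26 tested genes of signalling below chemokine receptors, the medians were -0.09 and -0.05, with 18 of the 26 negative in each knockout, both set against the same WT samples. Of all tested genes 53.7% were negative in E2A-/- and 51.4% in Lyl1-/-. Rgs1, a G protein brake on chemokine responses, differed by -0.41 in E2A-/- and -0.38 in Lyl1-/- (unadjusted p 0.00828 and 0.0130, limma). Its intensity was 150 to 176 on the WT arrays and 114 to 134 on the knockout arrays, without overlap. Rgs10, another such brake, went apart between the knockouts: 258 to 317 in WT, 183 to 216 in E2A-/- and 316 to 361 in Lyl1-/-. The E2A-/- minus Lyl1-/- difference was -0.72 (SE 0.112, adjusted p 0.0953, limma), the smallest adjusted p in the 10 lists. Gnai2, the inhibitory G protein alpha chain through which these receptors signal, was -0.48 in Lyl1-/-, and Grk3, a receptor kinase, was 0.41 higher in E2A-/- than in Lyl1-/- (adjusted p 0.458 and 0.344, limma). The Gnai2 value rested on WT 2, at 2814 against 1958 and 2107 on the other WT arrays, and was -0.25 without it.

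Of 14 ligands of the receptors, 5 were tested. The largest difference was at Selp, P-selectin, the partner of PSGL-1, read by a probe set with the _x_at suffix. Its intensity was 148, 94.3 and 175 on WT 1, 2 and 3, 369, 403 and 529 on the E2A-/- arrays and 838, 703 and 184 on the Lyl1-/- arrays. All knockout arrays lay above WT, Lyl1-/- 3 only just. The log2 differences were 1.80 and 1.95 (SE 0.579 for both, adjusted p 0.406 and 0.358, limma), and without Lyl1-/- 3 the Lyl1-/- difference was 2.64 with an adjusted p of 0.0152 (limma). Cells that carry Selp include megakaryocytes and platelets. Of 8 markers of these, 6 had a probe set of their own (5 bright enough to be tested), and their intensities summed to 692 to 758 in WT, 674 to 1212 in E2A-/- and 756 to 815 in Lyl1-/-. Itga2b, the alpha IIb chain of the platelet integrin, was at 152, 126 and 150 on the WT arrays, 279, 194 and 170 on the E2A-/- arrays and 317, 255 and 190 on the Lyl1-/- arrays. Like Selp it was above WT on every knockout array, and within Lyl1-/- lowest on Lyl1-/- 3. Pf4 was at 195 to 286 on the WT arrays and at 196, 168 and 646 on E2A-/- 1, 2 and 3. On Lyl1-/- 1, 2 and 3 it was at 131, 144 and 202, so it was lowest where Selp was highest. Ppbp was at 118 on E2A-/- 3 against 59.5 to 71.1 elsewhere. Like Pf4 it was thus highest on E2A-/- 3, where Selp was highest within E2A-/-. Gp1bb ran from 72.5 to 89.0, Gp9 from 111 to 154 and Vwf from 59.6 to 86.2. The part of such cells in the Selp values was not tested.

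PSGL-1 binds selectins only when glycosylated, and 11 of 13 enzymes of that step were tested, with medians of 0.04 in E2A-/- and 0.03 in Lyl1-/-. Gcnt1, which builds the core 2 branch of O-glycans, was 0.38 higher in E2A-/- than in WT, and St3gal3, a sialyltransferase, was at -0.36 (adjusted p 0.410 and 0.465, limma). Of 7 sialomucins and other selectin ligands, all were tested. Emcn, endomucin, differed by -0.53 in E2A-/- (intensity 65.6 to 76.7 against 94.3 to 111 on WT, adjusted p 0.204, limma), and Cd24a by 0.36 (adjusted p 0.480, limma). Emcn lay under the array median on every E2A-/- array, and so entered the test only through WT and Lyl1-/-. That filter tilts its E2A-/- differences towards lower values.

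Among the other integrin subunits 13 of 19 were tested, with medians of 0.08 in E2A-/- and 0.01 in Lyl1-/-. Itgal and Itgb2, the chains of LFA-1, were 0.54 and 0.46 higher in E2A-/- than in WT (adjusted p 0.400 and 0.548, limma). Both were highest on E2A-/- 2 and 3, the arrays with granulocyte transcripts: Itgal was at 184 on E2A-/- 1 and at 253 and 261 on those, and Itgb2 at 172 and at 275 and 221. On the WT arrays Itgal was 143 to 171 and Itgb2 151 to 163. Without E2A-/- 2 the Itgb2 difference was 0.30. On the Lyl1-/- arrays, with lower granulocyte sums, Itgal was also above WT, at 194, 232 and 191, whereas Itgb2 was at 120 to 147. The part of granulocyte RNA in these differences was not tested. In Lyl1-/-, Itgb5 was at -0.79 and Itgb3 at 0.70 (adjusted p 0.190 and 0.221, limma), with intensities of 187 to 256 against 349 to 384 on WT for Itgb5. Itgb3 reached 137 in Lyl1-/-, and all its Lyl1-/- arrays exceeded WT at 71.0 to 76.0. It lay under the array median on every WT array, and so entered the test only through the knockouts. That filter tilts its differences from WT towards higher values.

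Integrin activation, the inside-out step by which chemokine signals make integrins adhesive, had 17 of 20 genes tested. Its median was -0.16 in E2A-/- and -0.08 in Lyl1-/-, and 12 of the 17 were negative in each, to be read beside 53.7% and 51.4% of all genes and the shared WT samples. Rassf5, an effector of Rap1 in this step, was -0.37 in E2A-/- and -0.29 in Lyl1-/- (adjusted p 0.356 and 0.485, limma), at 902 to 1026 on the WT arrays and 677 to 809 on the knockout arrays. Skap2, an adaptor, was at -0.44 in Lyl1-/- (adjusted p 0.220, limma). Ilk, integrin-linked kinase, was at -0.55 in E2A-/- (adjusted p 0.571, limma), which came from E2A-/- 2 and 3 at 316 and 324, whereas E2A-/- 1 at 567 was near WT at 542 to 601. Without E2A-/- 1 the Ilk difference was -0.83 with an adjusted p of 0.0425 (limma).

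Of 16 immunoglobulin-type and junction adhesion molecules, 11 were tested. Emb, embigin, differed by 1.06 in E2A-/- (SE 0.265, adjusted p 0.242, limma). Its intensity was 644, 375 and 658 on WT 1, 2 and 3 against 1132, 1035 and 938 in E2A-/- and 513 to 860 in Lyl1-/-. WT 2 was the lowest array, and without it the difference was 0.66. Icam2, a ligand of LFA-1, was 0.58 higher in Lyl1-/- than in WT (adjusted p 0.472, limma). Ncam1 was 0.20 higher in E2A-/- than in Lyl1-/- at an intensity near the array median (adjusted p 0.540, limma).

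In the sphingosine 1-phosphate pathway 9 of 13 genes were tested. Spns2, which exports this lipid from cells, was -0.57 in E2A-/- and -0.56 in Lyl1-/- (SE 0.148 for both, adjusted p 0.272 and 0.285, limma). Its intensity was 1013 to 1177 on WT, 631 to 819 in E2A-/- and 620 to 795 in Lyl1-/-, without overlap. Foxo1, a transcription factor of lymphocyte trafficking genes, was at -0.45 in Lyl1-/- (adjusted p 0.555, limma), and the receptor S1pr4 differed by -0.32 between E2A-/- and Lyl1-/- (E2A-/- minus Lyl1-/-, adjusted p 0.453, limma). Of 15 partners of CD44 and genes of hyaluronan, 11 were tested, with medians of 0.09 and 0.05. Hmmr, a hyaluronan receptor that also acts in mitosis, was 0.41 higher in Lyl1-/- than in WT, and Mmp14, a protease that cleaves CD44, 0.21 higher in E2A-/- than in Lyl1-/- (adjusted p 0.432 and 0.509, limma). Mmp14 lay under the array median on every Lyl1-/- array, at 77.5 to 78.1. It so entered the test only through WT and E2A-/-, at a level where differences are compressed.

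**Figure D4:**
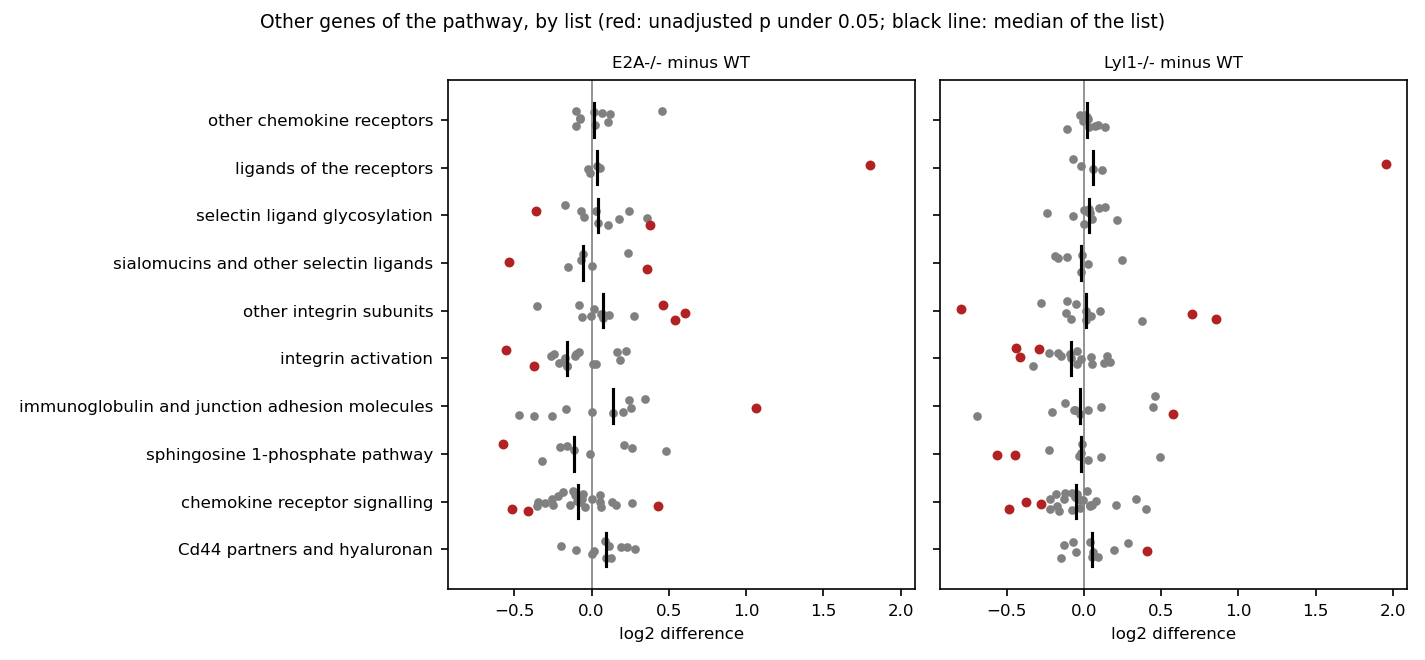
Log2 difference from WT (horizontal axis) of the tested genes of the 10 lists (1 point a gene), with the median of each list as a black line and genes at an unadjusted p under 0.05 in red. Selp lies furthest out in both knockouts (1.80 and 1.95), and the list medians lie between -0.16 and 0.14.

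The genes whose log2 intensity followed each member most closely over the 8 samples were named by Pearson correlation, as a description over points that share arrays and genotype. For Itgb7 these were Dedd2 (r = 0.959), Senp7 (0.951) and Trim30d (0.947). For Cxcr4 they were Foxo3 (0.967), Stat5a (0.963) and Lpgat1 (0.962), and for Ccr9 Rilpl1 (0.984), Spag1 (0.972) and Tubb1 (0.953). For Selplg they were D930020B18Rik (0.982), Acacb (0.962) and Mif4gd (0.961). For Itga4 they were Asns (0.983), Marchf5 (0.966) and Tcaim (0.964), for S1pr1 Enkur (0.983), Zmym5 (0.956) and Mbtps1 (0.938), and for Cd44 Slc9a7 (0.968), Nat2 (0.963) and Cc2d2a (0.948). They were picked as the highest of 11951 genes over 8 points. Between the members themselves r ran from -0.68 (Cxcr4 and Itga4) to 0.64 (Itgb7 and Cd44).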

How the data were processed

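RNA of sorted bone marrow progenitors was hybridised to 9 Affymetrix 3-prime expression arrays, 3 per genotype. RMA and the package oligo were applied by the authors, per the submitters' processing notes, which give no version. The deposited values are linear intensities with array medians of 77.9 to 79.3, and log2 was taken of them with no pseudocount. A constant stays under every value (lowest intensity of an array 42.1 to 45.1), so differences of dim genes are understated. GEO's platform annotation names 1 gene for 34945 of 45101 probe sets. Of these 34741 were found in the RefSeq gene table. It names several genes for 932 and none for 9160, and 64 controls were left out. For each gene the probe set with the highest mean log2 intensity stood in, and it was tested if it exceeded the median of its array on 3 or more arrays. A linear model over the 3 genotypes was fitted to 8 samples (WT 1 and 3 averaged, 5 residual degrees of freedom) by limma 3.58.1 (lmFit, then eBayes; R 4.3.3), with Benjamini-Hochberg adjustment over all 11951 genes or 20387 probe sets and a threshold of 0.05. The fit was tested on simulated data.

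The members, the pathway lists and the cell type markers were chosen with earlier results of these data known. Named genes are the members, Lyl1, Tcf3, up to 2 genes of each list with the smallest p in a comparison, and the 3 genes most alike to each member. Replicate numbers were not used as pairs in the main setting. Deviations of same-numbered arrays correlated from -0.14 to 0.22. Differently numbered arrays were not set beside them, so this does not decide whether the numbers pair the samples. The precision is limited by the number of samples. Alternatives were other normalizations, filters, summaries, sample sets and covariates.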

Additional observations from a re-analysis of the deposited data

Results flagged for a closer look

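At 7 of the 120 tested genes of the pathway lists, and at 0 of the 7 tested members, every E2A-/- array lay on one side of the mean of WT and every Lyl1-/- array on the other side, where this held for 2.36% of all tested genes. Of these 7, the 5 genes described in the report are given here. The E2A-/- minus Lyl1-/- difference itself was tested with limma over all genes and passed the threshold at none of the 5. Rgs10, a brake on G protein signalling, had a log2 difference of -0.7197 (SE 0.112, adjusted p 0.0953). From the WT mean the E2A-/- arrays stood at -0.46, -0.66 and -0.42 and the Lyl1-/- arrays at 0.32, 0.18 and 0.13. Itgb2, the beta 2 integrin chain, had a difference of 0.7404 (SE 0.167, adjusted p 0.286), with the E2A-/- arrays at 0.11, 0.79 and 0.48 and the Lyl1-/- arrays at -0.32, -0.41 and -0.11 from the WT mean. Its 2 high arrays are those with granulocyte transcripts. S1pr4, a sphingosine 1-phosphate receptor, was at -0.3162 (adjusted p 0.453), Mmp14 at 0.2139 (adjusted p 0.509) and Ncam1 at 0.199 (adjusted p 0.540). Mmp14 and Ncam1 were read near the array median, and Mmp14 lay under it on every Lyl1-/- array.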

How the results depend on the processing

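Over 24 alternatives, 1706 of 1741 recomputed differences of single genes and probe sets kept their direction and their side of the threshold, 27 reversed, 8 moved past the threshold and 0 fell back from it. The cause of these moves was not tested, except that smaller sets of samples or genes change the counts by construction. The members past the threshold in E2A-/- minus WT were 0 to 1 when 1 array was left out, as were the members' probe sets, the 1 being Itgb7 without E2A-/- 2. In the other comparisons the members' count was 0 under every alternative. Ccr9 and S1pr1 left the test under the stricter filter, and Ccr9 also when probe sets were averaged. A group left with 1 sample was assumed to vary like the others.

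With all 9 arrays as separate samples, genes past the threshold numbered 97, 93 and 23 (E2A-/- minus WT, Lyl1-/- minus WT, E2A-/- minus Lyl1-/-; 27, 23 and 14 in the main setting), and list genes 1 in each comparison (Emcn, Itgb5 and Rgs10). Whether the replicate numbers pair the samples was not decided. With the replicate block the counts were 60 and 55 for the first and second comparison, Itgb7 in E2A-/- had 0.73 with an adjusted p of 0.0615 (limma), and no member's call changed. With the intensity trend they were 43 and 42, and with only the 2 groups compared 10 and 15. Without WT 1 and 3 they were 13 and 14. Without E2A-/- 2 and 3 they were 6, 15 and 4, without WT 2 and E2A-/- 2 they were 9, 8 and 3, with the sex covariate 15 and 7, and with the actin ratio covariate 12 for Lyl1-/- minus WT and 9 between the knockouts. Leaving out 1 array gave 8 to 36, 7 to 34 and 3 to 21 genes, and 0 to 1, 0 to 2 and 0 to 1 list genes (Ilk without E2A-/- 1, Selp and Itgb3 without Lyl1-/- 3). Itgb3 passed the brightness filter only through the knockouts, and Emcn only through WT and Lyl1-/-.

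The differences that reversed were as follows. In E2A-/- minus WT, Itga4 was 0.0529 as the mean of its probe sets, 0.0819 without E2A-/- 2 and 3, 0.1046 without WT 2 and E2A-/- 2, and -0.1298 to 0.0729 with 1 array left out. Without E2A-/- 2 and 3, Cxcr4 was -0.035, S1pr1 0.0487, Cd44 probe set 1434376_at 0.3269 and, against Lyl1-/-, 1452483_a_at 0.3221. Without WT 2 and E2A-/- 2, 1434376_at was 0.1952, Itga4 1456498_at in Lyl1-/- minus WT 0.0833, and 1452483_a_at between the knockouts 0.0399. With the sex covariate, Itga4 1421194_at in E2A-/- minus WT was -0.0049 and Cd44 in Lyl1-/- minus WT 0.076, and with the actin ratio 1452483_a_at between the knockouts was 0.0383. With 1 array left out, E2A-/- minus WT ran from -0.3284 to 0.0085 for Tcf3, -0.2361 to 0.0937 for 1434376_at and -0.0333 to 0.2489 for 1452483_a_at. Lyl1-/- minus WT ran from -0.1036 to 0.0833 for 1456498_at and -0.1419 to 0.0711 for 1421194_at. E2A-/- minus Lyl1-/- ran from -0.608 to 0.1047 for Ccr9, -0.1136 to 0.0036 for Selplg, -0.0086 to 0.0844 for S1pr1 and -0.1666 to 0.1156 for 1452483_a_at. Of 11 tested probe sets, those of Ccr9, S1pr1, Itga4 1421194_at and Cd44 1452483_a_at lay near the array median, where differences are compressed: with the floor of each array subtracted, Ccr9 in E2A-/- was -1.33.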
